A study of Mus musculus with 6 samples.

Results

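The short interspersed elements (SINEs) of the mouse families B2, B4, ID and MIR were examined in eCLIP libraries of the protein Gtsf1. The members were all features that the deposited annotation names as SINE copies of these 4 families, chosen by name and not by any measured value. They numbered 168498 copies with a count in at least 1 of the 6 libraries, among 1753368 such features in all. B2 had 93605 copies, B4 56756, ID 4946 and MIR 13191, and the other large SINE family, Alu (B1), had 138357. The copies belong to 17 subfamilies. The files give each copy a numbered name and no coordinates.

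SINEs are non-autonomous retrotransposons that are copied through RNA by the machinery of LINE elements. B2, ID and MIR carry a head that descends from a tRNA gene, with the internal A and B boxes from which RNA polymerase III starts transcription, and B4 joins such a head to a B1-like part. ID elements trace back to alanine tRNA through the BC1 RNA gene, whereas B1 descends from 7SL RNA. Most copies are short, inactive fossils in introns and untranslated regions, so a read from a SINE can come from the transcript of the gene around it. Gtsf1, also called Asterix, is a zinc-finger protein known from transposon silencing by piRNAs and from binding to tRNA. The question here was whether repeats of tRNA origin followed tRNA in the crosslinked pull-down.

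All libraries came from P19 cells, a mouse embryonal carcinoma line, 48 h after transient transfection with mouse Gtsf1. Per the labels, the protein had a TEV-Strep tag at its C-terminus and was driven by the vector pEF with its EF-1alpha promoter, so the protein pulled down was an overexpressed, tagged one. For 4 of them, 2 inputs and 2 pull-downs, cells had been irradiated with ultraviolet light of 254 nm, which joins RNA covalently to bound protein, and these crosslinked libraries are called UV input and UV pull-down. The other two, 1 input and 1 pull-down, came from transfected cells that were not crosslinked and are called no-UV input and no-UV pull-down. Lysates were treated with RNase I, pull-downs were taken on MagStrep beads, and inputs are the lysate before capture. There was no pull-down from cells without the tagged protein among these samples.

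The libraries held between 13168593 and 18418166 reads, of which between 6.99% and 14.4% had no annotation. Levels are given in RPM, reads per 1000000 reads of the library, and are therefore shares of a library, in which fewer molecules in a cell and fewer cells with the molecule cannot be told apart. Nothing in the labels says whether libraries of a group came from separate cultures, so that tests measure the spread between these samples, which may be technical. Of 8 embryonal carcinoma markers, 7 reached 1 RPM in every input (the exception was Sall4, with 0.869 RPM in its lowest input), and none of 8 markers of other tissues did. The UV pull-downs differed from each other in tRNA, with 3375 and 9033 RPM.

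The start of the mouse BC1 RNA shows the tRNA-like head from which ID elements derive. The first 50 bases of the Bc1 transcript (RefSeq, GRCm38.p6, chr7:144914470-144914519, plus strand) are given below, with a stretch that reads like the A box of a tRNA gene in capitals, at bases 14 to 24 of the transcript.

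Bc1: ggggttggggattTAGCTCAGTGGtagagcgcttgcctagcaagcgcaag

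The letters TAGCTCAGTGG, searched on both strands, occur in 20 of the 32851 promoter windows of that RefSeq table (0.0609%) that each span the start of a gene. The match describes these letters only. BC1 itself was not analysed here, since no feature of the files bears its name, and copies without coordinates could not be read from a genome.

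The 4 families together had 3586 and 3415 RPM in the UV inputs and 4848 and 4812 RPM in the UV pull-downs. The no-UV input had 1331 RPM and the no-UV pull-down 1965 RPM. The pull-down over input ratio was thus 1.38 with crosslinking and 1.48 without it. Both UV pull-downs lay above both UV inputs, also in each of the 4 families, as in 8.51% of all features when repeats are summed by family. The 4 families made up between 63.6% and 69.5% of the SINE reads and between 0.133% and 0.485% of all reads of a library.

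ID elements rose in the UV pull-down, and they were the only one of the 4 families that passed the test as a sum. ID had 70.8 and 69.1 RPM in the UV inputs and 162 and 171 RPM in the UV pull-downs, and the groups did not overlap. The means were 70.0 ± 1.22 RPM and 166 ± 5.80 RPM (SD, n = 2 each), a ratio of 2.38. edgeR's quasi-likelihood test gave a log2 ratio of 1.34 (SE 0.17, Benjamini-Hochberg adjusted p 0.00463), where 4.05% of all features of that fit were called higher and 2.6% lower. The call held under every alternative run for it.

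ID elements were also the family with the largest ratio without crosslinking. The no-UV input had 6.55 RPM of ID reads and the no-UV pull-down 65.0 RPM, a ratio of 9.93. Those values rest on 93 and 856 reads after rounding, with 95% Wilson intervals of 5.37 to 8.05 RPM and 60.8 to 69.5 RPM, which cover counting error only. The no-UV pull-down thus held about as much ID sequence as the UV inputs, and the no-UV input stood apart from all 5 other libraries. The UV inputs had 10.7 times the ID level of the no-UV input.

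B2, B4 and MIR lay higher in both UV pull-downs than in both inputs, by less than ID, and none of the 3 passed the test. B2 had 1477 and 1431 RPM in the inputs against 1780.0 and 1854 RPM in the pull-downs. The B2 ratio was 1.25 (edgeR log2 ratio 0.41, SE 0.16, adjusted p 0.221). B4 had 1678 and 1574 RPM against 2371 and 2285 RPM. The B4 ratio was 1.43 (edgeR log2 ratio 0.61, SE 0.16, adjusted p 0.0888). MIR, the oldest of the 4 families and shared among mammals, had 359.6 and 340.5 RPM against 535 and 503 RPM. The MIR ratio was 1.48 (edgeR log2 ratio 0.66, SE 0.17, adjusted p 0.0727). With TMM scaling factors, B4 (adjusted p 0.0471) and MIR (adjusted p 0.0318) passed.

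In the no-UV libraries these families kept different distances between pull-down and input. All 4 families had a no-UV ratio above 1, as did 13.7% of all features summed in this way. B2 had 667 RPM in the input and 706 RPM in the pull-down, a ratio of 1.06. B4 had 551 and 987 RPM, a ratio of 1.79, and MIR had 106 and 207 RPM, a ratio of 1.95. For B4, MIR and ID the ratio was thus larger without crosslinking than with it, and for B2 it was smaller. A larger ratio without crosslinking was not particular to SINEs. LINE copies summed had 1.90 with and 2.81 without crosslinking, while introns summed had 0.881 and 0.673. The B2 ratio without crosslinking was 0.864 when the 26 copies averaging 1 RPM or more over the UV libraries were left out. The Alu (B1) family, which is not of tRNA origin, had 1937 and 1949 RPM in the UV inputs and 2445 and 2311 RPM in the UV pull-downs. Its ratios of 1.22 with and 1.18 without crosslinking lay beside those of B2, and it did not pass the test (adjusted p 0.250).

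**Figure D1:**
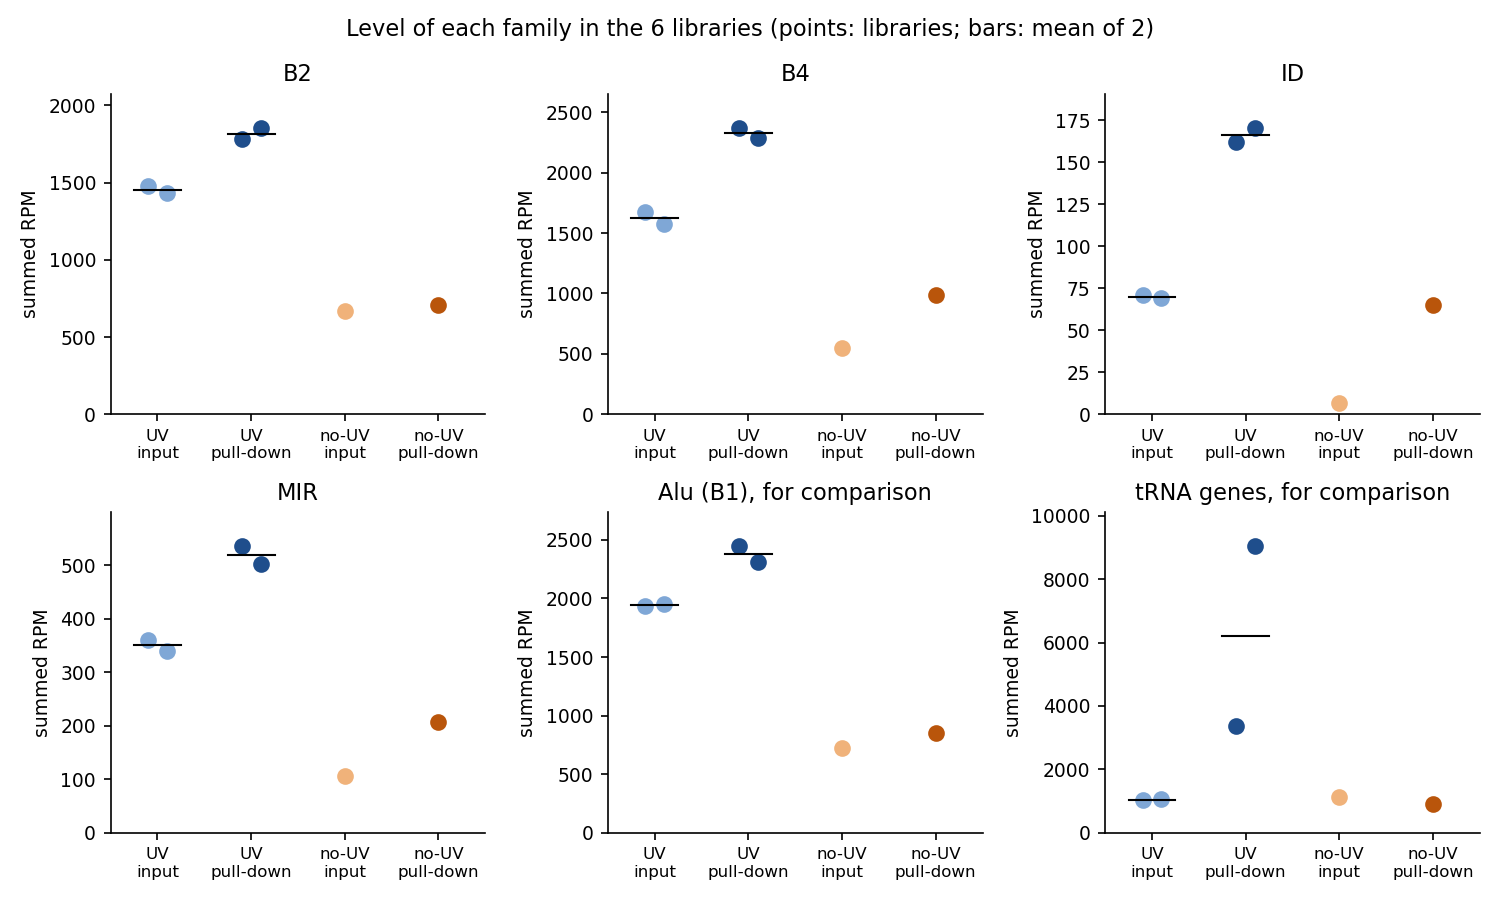
Level of each family in the 6 libraries, as summed RPM on a linear axis from 0, with Alu (B1) and all tRNA genes for comparison. Points are libraries and bars are means of 2 libraries. The UV pull-downs lie above the UV inputs in every panel, the no-UV input of ID lies at 6.55 RPM, and the tRNA pull-downs differ from each other by 2.68 times, while those of the 4 SINE families differ by 0.940 to 1.05 times.

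The tRNA genes behaved otherwise in the same libraries. Summed over 869 genes, tRNA had 1047 and 1050.5 RPM in the UV inputs and 3375 and 9033 RPM in the UV pull-downs. The ratio was 5.91 (edgeR log2 ratio 2.66, SE 0.45, adjusted p 0.0180). In the no-UV libraries, tRNA had 1135 RPM in the input and 915 RPM in the pull-down, a ratio of 0.805. UV pull-down 2 had 2.68 times the tRNA of pull-down 1, whereas this ratio was 1.04 for B2, 0.964 for B4, 1.05 for ID and 0.940 for MIR. The SINE families therefore did not share the difference between the pull-downs that tRNA showed.

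The level of each family was set against tRNA within each library, since this log2 ratio would be equal in pull-down and input for a family that followed tRNA. For B2 the log2 ratio to tRNA was 0.50 and 0.45 in the UV inputs and -0.92 and -2.28 in the UV pull-downs. The mean fell by 2.08 for B2, 1.88 for B4 and 1.83 for MIR from input to pull-down. For ID the log2 ratio to tRNA was -3.89 and -3.93 in the inputs and -4.38 and -5.73 in the pull-downs, and the mean dropped by 1.15. In all 4 families both pull-downs lay below both inputs. The two-sided exact permutation p was 0.333, the smallest that 2 libraries against 2 allow. Alu (B1), not of tRNA origin, had 0.89 and 0.89 in the inputs and -0.47 and -1.97 in the pull-downs, a difference of -2.11. With tRNA higher in the pull-downs, such a fall was thus not particular to repeats of tRNA origin. How many of all features fell in this way was not counted. The size depended on the pull-down. Without UV pull-down 2, the differences were -1.39 for B2, -1.14 for B4, -0.47 for ID and -1.07 for MIR. Without UV pull-down 1, they were -2.76, -2.61, -1.82 and -2.58 in the same order. In the no-UV libraries the differences had the other sign, at 0.39 for B2, 1.15 for B4, 3.62 for ID and 1.28 for MIR. For Alu it was 0.55 there.

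A further view of the families is the level in the UV pull-downs over that in the no-UV pull-down. This ratio was 2.57 for B2, 2.36 for B4, 2.56 for ID and 2.50 for MIR, with 2.78 for Alu and 6.78 for tRNA. The inputs gave 2.18 for B2, 2.95 for B4, 10.7 for ID and 3.29 for MIR, with 2.68 for Alu and 0.924 for tRNA. SINE reads of every family were thus a larger share of the irradiated libraries, input and pull-down alike. So were LINE copies summed, with 1.99 in the inputs and 1.34 in the pull-downs, and introns summed, with 1.74 and 2.28. For tRNA the larger share was seen in the pull-downs and not in the inputs. No replicate error stands behind these ratios, because each no-UV group is 1 library.

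ID was also set against the other 3 families within each library. The log2 ratio of ID to the sum of B2, B4 and MIR was -5.63 and -5.60 in the UV inputs and -4.85 and -4.77 in the UV pull-downs, a difference of 0.81. The same difference was -0.24 for B2 against the other 3, 0.10 for B4 and 0.12 for MIR, each with no overlap between the groups. The exact permutation p was 0.333 for each of the 4, the smallest it can be. Without crosslinking the ID difference was 2.79.

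The difference between the UV and no-UV ratios was tested in a fit of all 6 libraries, in which the lone no-UV libraries were assumed to vary like the UV ones. For ID this difference was -2.07 on the log2 scale (SE 0.31, unadjusted p 0.000327, edgeR adjusted p 0.312), so that it did not pass over all features. For B4 it was -0.34 (adjusted p 0.562), for MIR -0.41 (adjusted p 0.516) and for B2 0.23 (adjusted p 0.690). For tRNA it was 2.87 (SE 0.74, unadjusted p 0.00645, adjusted p 0.312). edgeR called 0 of 38170 features in that fit, and 14.0% had an unadjusted p under 0.05. DESeq2 called ID lower (adjusted p 0.00608), and edgeR did without UV input 1 (0.0322) or input 2 (0.0414). The tRNA sum was likewise called without UV input 1 (adjusted p 0.00172) or input 2 (0.00470), in the other direction. The adjusted p of ID ranged up to 0.467 over the other alternatives.

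The scaling bears on that difference. Its median over all features was 0.57 with plain library sizes and -0.02 with TMM factors. Relative to the median of all features, the difference with plain library sizes was -0.35 for B2, -0.91 for B4, -2.64 for ID, -0.98 for MIR and 2.30 for tRNA. The B2 difference changed sign, to -0.37 with TMM factors, -0.43 with DESeq2 and -0.07 with rRNA left out, while ID, B4 and MIR were negative and tRNA positive under all of the scalings run.

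Copies were then summed by subfamily, and all 17 subfamilies reached the minimum of 1 RPM over the UV libraries. edgeR called 6 of the 17 higher in the UV pull-down and 0 lower, against 4.91% of all features called higher and 2.78% called lower in that fit. At an unadjusted p under 0.05, 13 of the 17 were higher and 0 lower (21.7% of all features had such a p in either direction), and DESeq2 and limma also called 0 lower. The 6 were the 4 ID subfamilies, ID_B1 of the B4 family and MIR3. The median log2 ratio was 0.62 over the 17 subfamilies and -0.21 over all features. Calls were not particular to repeats of tRNA origin, since 4 of the 15 Alu subfamilies tested were also called higher (B1F, B1F1, B1F2 and B1_Mur1) and 0 lower. The Alu subfamily B1F1 had 48.8 and 47.8 RPM in the UV inputs, 104 and 95.4 RPM in the UV pull-downs, and 11.6 and 43.9 RPM in the no-UV input and pull-down. Its edgeR log2 ratio was 1.14 (SE 0.16, adjusted p 0.00700), and that of B1F2 was 1.04 (adjusted p 0.0146). In 14 of the 17, both UV pull-downs lay above both inputs, as in 9.7% of all features.

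The ID subfamilies moved alike. ID4_ had 29.1 and 29.2 RPM in the UV inputs, 70.2 and 74.3 RPM in the UV pull-downs, 3.20 RPM in the no-UV input and 27.1 RPM in the no-UV pull-down. Its edgeR log2 ratio was 1.40 (SE 0.16, adjusted p 0.00274). ID4 had 28.3 and 28.2 RPM against 62.4 and 65.0 RPM, with 2.25 and 24.5 RPM in the no-UV pair (log2 ratio 1.26, SE 0.15, adjusted p 0.00405). With 2082 and 1967 copies with a count, these were the largest ID subfamilies and held most of the ID reads.

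The smaller ID subfamilies gave like values. ID2 had 4.97 and 4.61 RPM in the UV inputs against 13.2 and 12.02 RPM in the pull-downs (log2 ratio 1.48, SE 0.14, adjusted p 0.00176). The subfamily named ID had 8.51 and 7.07 RPM against 16.7 and 19.3 RPM (log2 ratio 1.30, SE 0.17, adjusted p 0.00564). In the no-UV pair, ID2 had 0.643 and 5.20 RPM and the subfamily ID had 0.459 and 8.31 RPM. The no-UV ratios of the 4 subfamilies ran from 8.09 to 18.1 and their UV ratios from 2.26 to 2.63. These 4 calls were lost only in the fit with no filter on low values, among the alternatives run.

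ID_B1, whose copies join an ID-like and a B1-like part, was the one B4 subfamily called. It had 434 and 425 RPM in the UV inputs, 735 and 715 RPM in the UV pull-downs, and 129 and 323 RPM in the no-UV input and pull-down. Its edgeR log2 ratio was 0.85 (SE 0.16, adjusted p 0.0253), and the call was lost without either UV pull-down (adjusted p 0.0689 without pull-down 1 and 0.0693 without pull-down 2), with the replicate number as a block in the fit (0.0522), without rRNA (0.0686) and without a filter (0.282). The other B4 subfamilies did not pass. Subfamily B4 had 298 and 274 RPM against 416 and 412 RPM (log2 ratio 0.62, adjusted p 0.0706), RSINE1 had 322 and 308 RPM against 434 and 415 RPM (0.52, adjusted p 0.114), and B4A had 624 and 566.5 RPM against 786 and 743 RPM (0.45, adjusted p 0.168). Subfamily B4 passed with TMM factors (adjusted p 0.0312) and a minimum of 5 RPM (0.0431), and RSINE1 with TMM factors (0.0498). In each of these both UV pull-downs exceeded both inputs, and the no-UV ratio, from 1.39 to 2.50 over the 4 subfamilies, was above the UV one.

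MIR3 was the one MIR subfamily called. It had 37.6 and 34.4 RPM in the UV inputs, 67.7 and 61.8 RPM in the UV pull-downs, and 9.77 and 24.0 RPM in the no-UV input and pull-down. Its edgeR log2 ratio was 0.94 (SE 0.16, adjusted p 0.0157), and the call was lost without UV input 1 (adjusted p 0.0526), input 2 (0.0633) or a filter (0.430). The log2 ratios of MIR, MIRb and MIRc were 0.67, 0.62 and 0.51, with adjusted p-values of 0.0552, 0.0664 and 0.114. All 3 passed with TMM factors (adjusted p 0.0212, 0.0270 and 0.0391), and MIR and MIRb with a minimum of 5 RPM (0.0397 and 0.0459). The no-UV ratios of the 4 MIR subfamilies ran from 1.86 to 2.46.

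None of the 5 B2 subfamilies passed, and their log2 ratios ran from -0.17 to 0.68. B3A, one of the older B2 groups, had 395 and 371 RPM in the UV inputs and 589 and 565.5 RPM in the pull-downs (log2 ratio 0.68, adjusted p 0.0529), just outside the threshold. B3A passed with TMM factors (adjusted p 0.0247) and with a minimum of 5 RPM (0.0318). B3, the subfamily with the most reads after summing in this family, had 724 and 687 RPM against 840.0 and 854 RPM (0.36, adjusted p 0.257). B2_Mm2 had 246 and 249 RPM against 246 and 298 RPM, so that the groups overlapped (0.23, adjusted p 0.509). B2_Mm1t had 59.4 and 64.3 RPM against 64.0 and 82.2 RPM, which also overlapped (0.33, adjusted p 0.371). B2_Mm1a, one of the youngest B2 groups, had 53.5 and 60.5 RPM against 41.3 and 53.9 RPM (-0.17, adjusted p 0.664). B2_Mm1a was the one subfamily of the 17 with a ratio under 1 in both same-numbered pairs, and its log2 ratio was 0.04 with TMM factors and 0.02 without UV pull-down 1.

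Summed by age, the younger B2 subfamilies (B2_Mm1a, B2_Mm1t and B2_Mm2) had 359 and 374 RPM in the UV inputs and 351 and 434 RPM in the UV pull-downs. The ratio was 1.07, the groups overlapped, and the no-UV ratio was 0.794. The older subfamilies (B3 and B3A) had 1119 and 1057 RPM against 1429 and 1420 RPM, with no overlap, a ratio of 1.31 and a no-UV ratio of 1.20. In 4 of the 5 B2 subfamilies the no-UV ratio was under 1, whereas it was above 1 in all 12 subfamilies of B4, ID and MIR. Over all features of the fit, 14.7% had a no-UV ratio above 1.

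**Figure D2:**
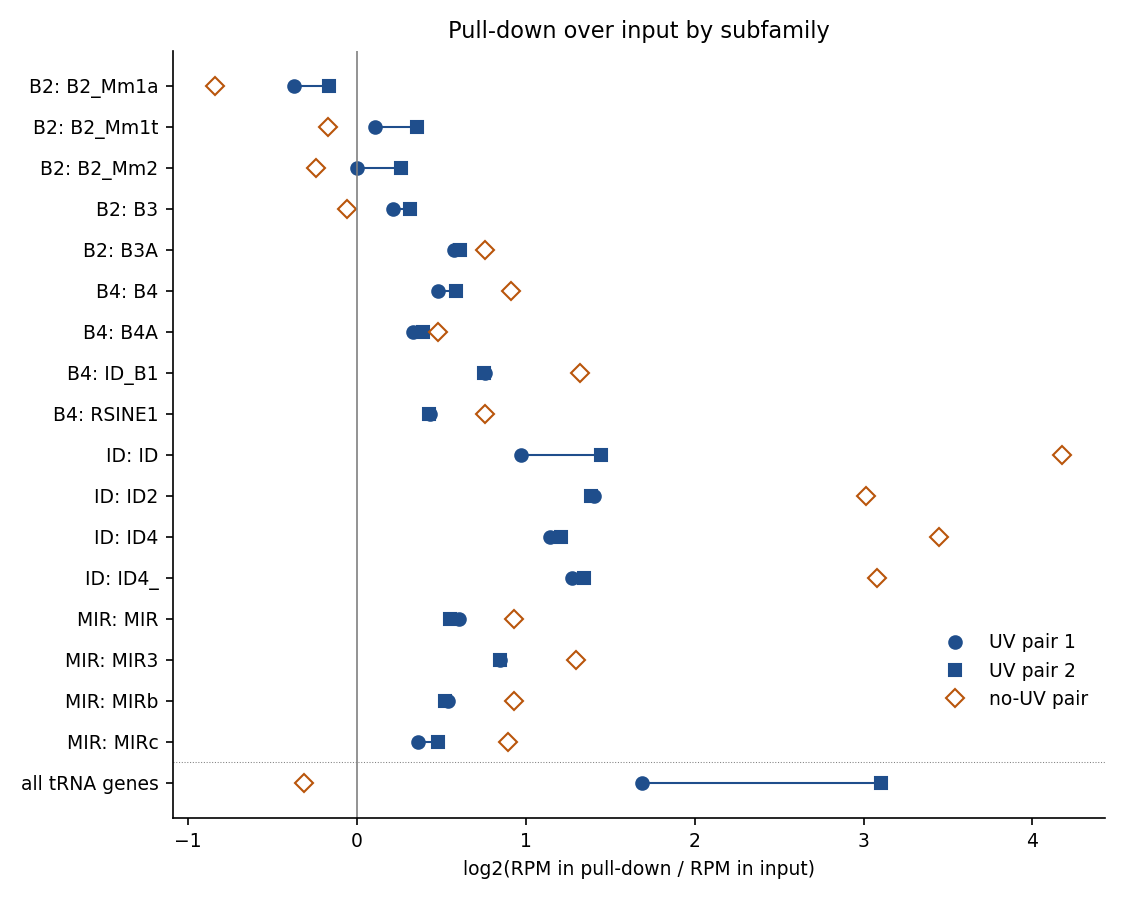
log2 ratio of RPM in pull-down over input for the 17 subfamilies and for all tRNA genes. Filled points are the same-numbered UV pairs, joined by a line, and open diamonds the no-UV pair. The diamonds of the 4 ID subfamilies lie to the right of their UV points, at ratios of 8.09 to 18.1, and the diamond of tRNA lies to the left, at a ratio of 0.805.

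The test of the difference between UV and no-UV ratios called 0 of the 17 subfamilies in edgeR, and 0 of all 38857 features. At an unadjusted p under 0.05 it gave 4 of the 17, the ID subfamilies, all of them negative. Such a p was found for 14.2% of all features. With TMM factors, edgeR gave 13 of the 17 at that threshold, all negative, and 3587 of 38857 features in either direction. DESeq2 called 11 of all 38857 features higher and 141 lower with crosslinking. Of the 17 it called 3, all lower (ID, ID4 and ID4_). In edgeR the difference was -2.94 for ID and -2.28 for ID4 without UV input 1. Without UV input 2 it was -3.18 and -2.26. The difference was negative in 13 of the 17 subfamilies with plain library sizes, the exceptions being B2_Mm1a, B2_Mm1t, B2_Mm2 and B3. Those 4 were negative with TMM factors, at -0.02, -0.18, -0.22 and -0.28. A negative difference was not particular to repeats of tRNA origin. With plain library sizes it was negative in 8 of the 15 Alu subfamilies tested, among them B1F1 (-0.88), B1F2 (-0.89) and PB1D7 (-0.75).

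In the same fit, 48 groups of tRNA genes summed by anticodon were tested, of which 45 were called higher. Their median log2 ratio was 3.86, and the difference from the no-UV ratio was positive in 44 of the 48. UV pull-down 2 exceeded pull-down 1 in all 48, by a median of 2.17 times. Over the 17 SINE subfamilies this ratio of the pull-downs ran from 0.913 to 1.30, and over the tRNA groups from 1.24 to 3.29. The highest among the SINE subfamilies were B2_Mm1a at 1.30, B2_Mm1t at 1.28 and B2_Mm2 at 1.21.

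The alanine tRNAs, from which ID elements descend, were set beside ID. tRNA-Ala-AGC had 19.5 and 15.5 RPM in the UV inputs and 201 and 641 RPM in the UV pull-downs (log2 ratio 4.69, SE 0.58, adjusted p 0.00434). It had 14.6 RPM in the no-UV input and 17.4 RPM in the no-UV pull-down. tRNA-Ala-CGC and tRNA-Ala-TGC had log2 ratios of 2.33 and 2.45 (adjusted p 0.0389 and 0.0373). Their no-UV ratios were 0.451 and 0.467. The 3 alanine groups summed were 3.14 times as high in pull-down 2 as in pull-down 1, and ID 1.05 times.

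Other RNAs made by RNA polymerase III moved in both directions in the fit of summed features. The vault RNA Vaultrc5 rose, from 7.73 and 6.35 RPM to 18.1 and 45.4 RPM (log2 ratio 2.27, SE 0.43, adjusted p 0.0265), with 5.30 and 2.51 RPM in the no-UV input and pull-down. The 7SL RNA genes Rn7s1 and Rn7s2, of the kind from which B1 descends, fell, with log2 ratios of -1.20 and -1.19 (adjusted p 0.0264 and 0.0279). The Y RNAs Rny1 and Rny3, the RNA subunits Rmrp and Rpph1, and Rnu6 did not pass, with log2 ratios of -1.07, -0.93, 0.60, -0.71 and -1.05. The 5S rRNA genes (43 features named n-R5s) had a summed ratio of 3.10 in the UV and 3.18 in the no-UV libraries. Rn7sk and Rn4.5s were not analysed here. Repeat copies of 7SK RNA summed had a ratio of 0.674 in the UV and 0.577 in the no-UV libraries. The 1923 tRNA pseudogenes summed had ratios of 3.38 and 2.30, from 8.93 and 8.96 RPM in the UV inputs. They were 1.78 times as high in UV pull-down 2 as in pull-down 1.

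The reads of the 4 families were spread over many copies. A SINE copy was given a count in 53154 and 55439 cases in the UV inputs, 65092 and 67868 in the UV pull-downs, 20997 in the no-UV input and 19061 in the no-UV pull-down. The 100 highest copies of the ID family held 18.4% and 18.7% of its reads in the UV inputs, and 31.1% and 35.8% in the UV pull-downs. In the no-UV pull-down these shares were 69.0% for ID, 50.4% for MIR, 37.4% for B4 and 27.3% for B2. In the no-UV input they were 18.5% for MIR, 17.3% for B4 and 4.92% for B2, all lower than in the no-UV pull-down. The ID share cannot be compared there, since only 105 ID copies had a count in the no-UV input and the 100 highest held 99.5% of the reads. The highest ID copy alone held 2.16% of the ID reads in the no-UV input and 8.17% in the no-UV pull-down. The no-UV input had 93 ID reads in all, and the no-UV pull-down 856 over 428 copies. These shares, and the 69.0% above, thus rest on few reads.

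Reads that fit several copies had been split among them by the counting, which gives fractional counts. Copies with a fractional count in some library held 6.36% and 6.48% of ID reads in the UV inputs, 22.6% and 22.4% in the UV pull-downs, and 37.4% in the no-UV pull-down. For B4 these shares were 20.7% and 19.1%, then 33.3% and 36.3%, and 50.6%. Over the copies with whole counts in all 6 libraries, the UV ratio was 1.08 for B2, 1.17 for B4, 1.97 for ID and 1.23 for MIR. The no-UV ratio over these copies was 0.800 for B2, 1.16 for B4, 6.94 for ID and 1.30 for MIR, so that B2 lay under 1 and B4 was no longer larger without crosslinking. The pull-down reads also decided which copies had a fractional count, so that these ratios are a description only. A single copy with shared reads is uncertain as the source.

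Single copies were tested as deposited, and 142 of the 168498 reached a mean of 1 RPM over the 4 UV libraries. They were 26 copies of B2, 95 of B4, 4 of ID and 17 of MIR, and 138 of them had counts distinct from each other. edgeR called 119 of the 142 higher and 4 lower, where it called 6.41% of all features higher and 3.47% lower. Of the 142, 112 had an input mean under 1 RPM and passed the minimum through the pull-downs alone, so that these had to differ and their count supports nothing about the families. In 91 of them both inputs held 3 reads or fewer. The 23 copies not called higher were 2 of B2, 20 of B4 and 1 of MIR.

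Most of the copies called higher were as high in the no-UV pull-down. In 118 of the 119, the no-UV pull-down lay above the no-UV input, as in 95.1% of the 2556 features called higher over the whole table (15.7% of all tested features). A share this high is thus common to called features. In 106 of the 119 the no-UV pull-down held at least 1 RPM, whereas only 2 of the 119 reached 1 RPM in the no-UV input. The no-UV pull-down had a median of 0.960 times the mean of the UV pull-downs. It lay between 0.5 and 2 times that mean in 101 of the 119. These last counts were not set against all features called higher. As 112 of the 142 tested copies had a UV input mean under 1 RPM, low inputs were in part fixed by the choice.

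The 5 copies with the largest rise showed this pattern. B3A_dup58697, of the B2 family, had 0 reads in both UV inputs and in the no-UV input, 14.5 and 17.7 RPM in the UV pull-downs, and 15.3 RPM in the no-UV pull-down. It was at least 96.4-fold higher in the UV pull-downs, taking 3 reads per library as the floor (edgeR adjusted p 0.000355). ID_B1_dup31379 had 9.43 and 10.02 RPM in the UV pull-downs and 8.92 RPM in the no-UV one, and was at least 58.1-fold higher. RSINE1_dup46961 (at least 47.7-fold), B4_dup28629 (at least 47.3-fold) and ID_B1_dup9227 (at least 43.2-fold) likewise had 0 reads in the UV inputs. Their levels in the no-UV pull-down were 6.61, 8.62 and 6.92 RPM.

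The copy with the highest mean over the UV libraries in each of the families B4, B2 and MIR had reads in the inputs as well. B4_dup11896 had 12.8 and 10.6 RPM in the UV inputs, 50.9 and 59.2 RPM in the UV pull-downs, and 1.55 and 24.1 RPM in the no-UV input and pull-down (edgeR log2 ratio 2.33, SE 0.19, adjusted p 0.000673). B3A_dup72344 had 2.3 and 2.7 RPM against 47.2 and 26.2 RPM, with 1.06 and 31.1 RPM without crosslinking (log2 ratio 3.96, adjusted p 0.000748). MIR3_dup9358 had 1.69 and 0.977 RPM against 24.8 and 16.8 RPM, with 0.353 and 9.53 RPM without crosslinking (log2 ratio 4.04, adjusted p 0.000549). Of these 3 copies, B3A_dup72344 and MIR3_dup9358 were lower in UV pull-down 2 than in pull-down 1, the reverse of tRNA.

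The other copies named for the highest mean of their family were B3A_dup65492, B3A_dup87218 and B2_Mm2_dup16650 in B2, and MIRc_dup6134, MIRb_dup34410, MIRb_dup10227 and MIRb_dup6905 in MIR, all called higher. In B4 the next copies after B4_dup11896 by mean, with copies of identical counts named once, were B4A_dup103427, B4A_dup40787, B4A_dup40783 and B4A_dup95266. All 4 were lower in both UV pull-downs than in both inputs, and 1 of them was called. The B2_Mm2 copy had 0.401 and 0.163 RPM in the UV inputs, 11.5 and 13.6 RPM in the UV pull-downs and 12.04 RPM in the no-UV pull-down. In ID, ID_dup2259 had 0 reads in every input, 5.46 and 6.95 RPM in the UV pull-downs and 5.24 RPM in the no-UV one. ID4__dup9561 and ID4_dup22647 had 0 reads in every input too and were at least 24.3-fold and 12.1-fold higher, with 5.32 and 3.72 RPM in the no-UV pull-down. ID4_dup23639, with 1.92 and 1.64 RPM in the UV pull-downs, fell under the minimum and was not tested.

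The 4 copies called lower were all of the B4 family. B4A_dup103427 had 22.6 and 14.1 RPM in the UV inputs, 6.90 and 8.50 RPM in the UV pull-downs, and 12.7 and 3.44 RPM in the no-UV input and pull-down (log2 ratio -1.16, SE 0.26, adjusted p 0.0416). B4A_dup40787, B4A_dup40783 and B4A_dup95266 had nearly the same counts as this copy and did not pass (adjusted p 0.0593, 0.0587 and 0.0587). B4_dup53996 had 4.18 and 2.77 RPM in the inputs against 0.186 and 0.0346 RPM in the pull-downs, and B4_dup61651 shared its pull-down counts (log2 ratios -4.62 and -4.50). B4_dup35964 had 2.61 and 2.71 RPM against 1.15 and 1.14 RPM (log2 ratio -1.15, adjusted p 0.00798). All 4 calls were lost without a filter. B4A_dup103427 also lost its call with the replicate block (adjusted p 0.0828), TMM factors (0.0874), DESeq2 (0.206) and a minimum of 5 RPM (0.0537), and without UV input 1 (0.114) or UV pull-down 1 (0.103). B4_dup35964 lost it in DESeq2 (adjusted p 0.607). Without UV input 2, 10 copies were called lower.

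**Figure D3:**
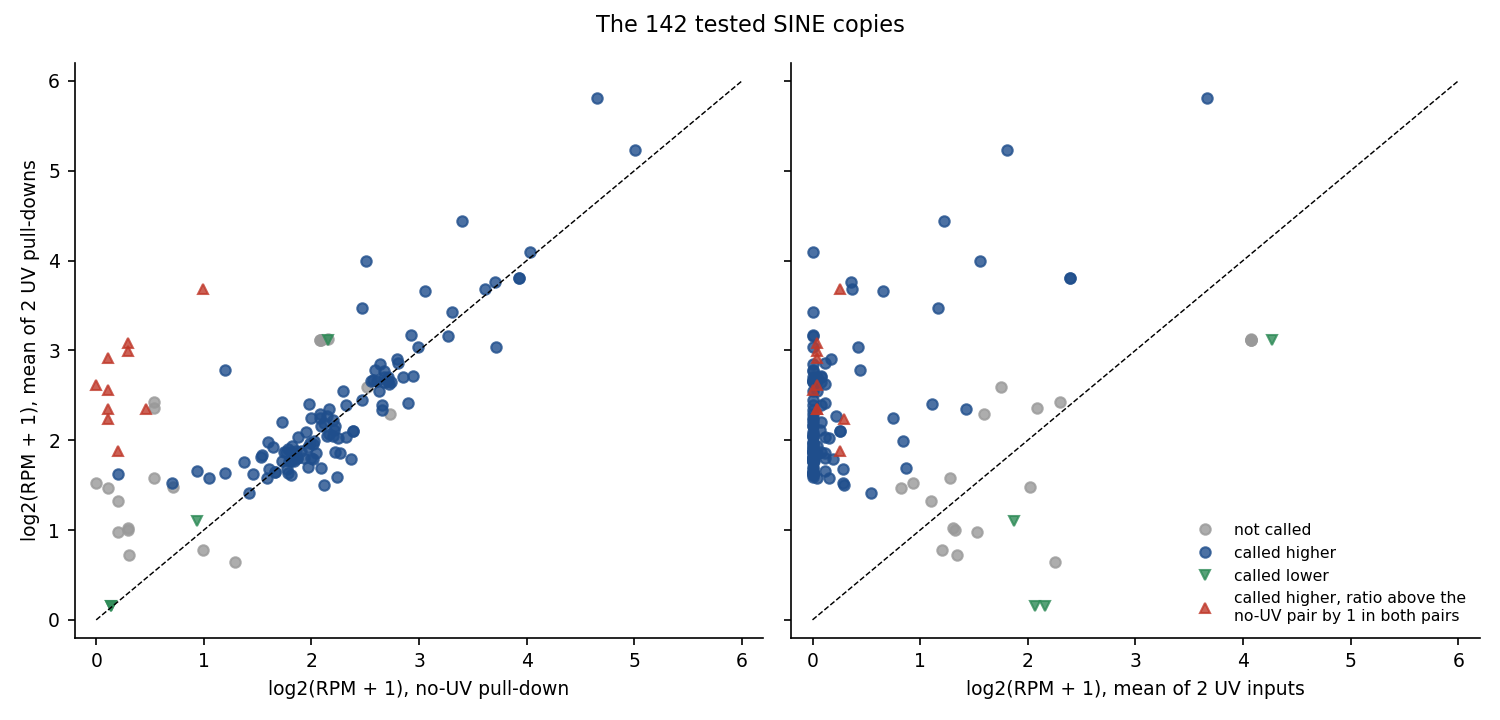
The 142 tested copies, with the mean of the UV pull-downs on the y axis against the no-UV pull-down (left) and the mean of the UV inputs (right), all as log2(RPM + 1). The dashed line marks equal levels. Most copies called higher lie along the line on the left and far above it on the right, and 10 triangles lie above the line on both sides.

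A smaller set of copies differed between the UV and no-UV pull-downs. In 10 of the 119 copies called higher, the log2(RPM + 1) ratio was above that of the no-UV pair by 1 or more in both same-numbered UV pairs, a criterion met by 299 of the 2556 features called higher over the whole table (11.7%) and by 1.3% of all tested features. The SINE share was thus near that of called features in general. The 10 copies were B3A_dup84027, B3_dup113469 and B3_dup99037 of B2, B4A_dup20565, B4A_dup37074, ID_B1_dup109182, ID_B1_dup52482, RSINE1_dup31093 and RSINE1_dup55039 of B4, and ID4__dup18858 of ID. No MIR copy met the criterion. The names were read off by this criterion after the values had been seen, and the difference was not tested copy by copy.

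ID4__dup18858 had 0.0573 and 0 RPM in the UV inputs, 3.54 and 11.4 RPM in the UV pull-downs, 0.0707 RPM in the no-UV input and 0.228 RPM in the no-UV pull-down. B4A_dup20565 had 0.286 and 0.109 RPM in the UV inputs, 5.82 and 17.8 RPM in the UV pull-downs, and 0.283 and 0.987 RPM in the no-UV input and pull-down. ID_B1_dup52482 had 2.95 and 10.9 RPM in the UV pull-downs and 0.228 RPM in the no-UV one. These 3 copies were higher in both UV pull-downs than in the no-UV pull-down, with more in pull-down 2. Of them, B4A_dup20565 also had reads above the 3-read floor in the no-UV pull-down. RSINE1_dup31093 and B4A_dup37074 were among the 3 of the 10 that were lower in pull-down 2, with 3.16 and 2.21 RPM and 4.87 and 2.58 RPM.

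Among the 10, UV pull-down 2 was at least 1.5 times pull-down 1 in 7, and the median of this ratio was 2.17. Among the other 109 copies called higher, it was at least 1.5 in 7, and the median was 1.05. The criterion used both pull-downs against the no-UV pair and did not use their ratio to each other, but both share the same libraries, and the ratio is given as a description. The 10 copies together held 37.9 and 76.9 RPM in the UV pull-downs and 2.28 RPM in the no-UV pull-down. The other 109 held 573 and 570.1 RPM, and 504 RPM. The criterion chose the 10 for a UV ratio above the no-UV one. This contrast of sums therefore follows from the choice and is a description only.

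The reads of the tested copies were summed as a description only, since 112 of the 142 had been chosen through the pull-downs, among them all 4 of ID, and a larger part in the pull-downs was fixed by that choice. Together the 142 held 171 and 148 RPM in the UV inputs, 681 and 719 RPM in the UV pull-downs, and 76.3 and 540.1 RPM in the no-UV input and pull-down. This was 4.78% and 4.33% of the reads of the 4 families in the UV inputs, 14.1% and 14.9% in the UV pull-downs, and 27.5% in the no-UV pull-down. For the other 168356 copies the ratio was 1.24 in the UV and 1.14 in the no-UV libraries. By family, the UV ratio of these other copies was 1.14 for B2, 1.27 for B4, 2.10 for ID and 1.30 for MIR. Their no-UV ratio was 0.864, 1.37, 7.80 and 1.39 in the same order. In the ID family these other copies had 147.8 and 145.6 RPM in the UV pull-downs against 70.8 and 69.1 RPM in the inputs. Leaving out copies chosen in this way lowers a ratio by construction.

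**Figure D4:**
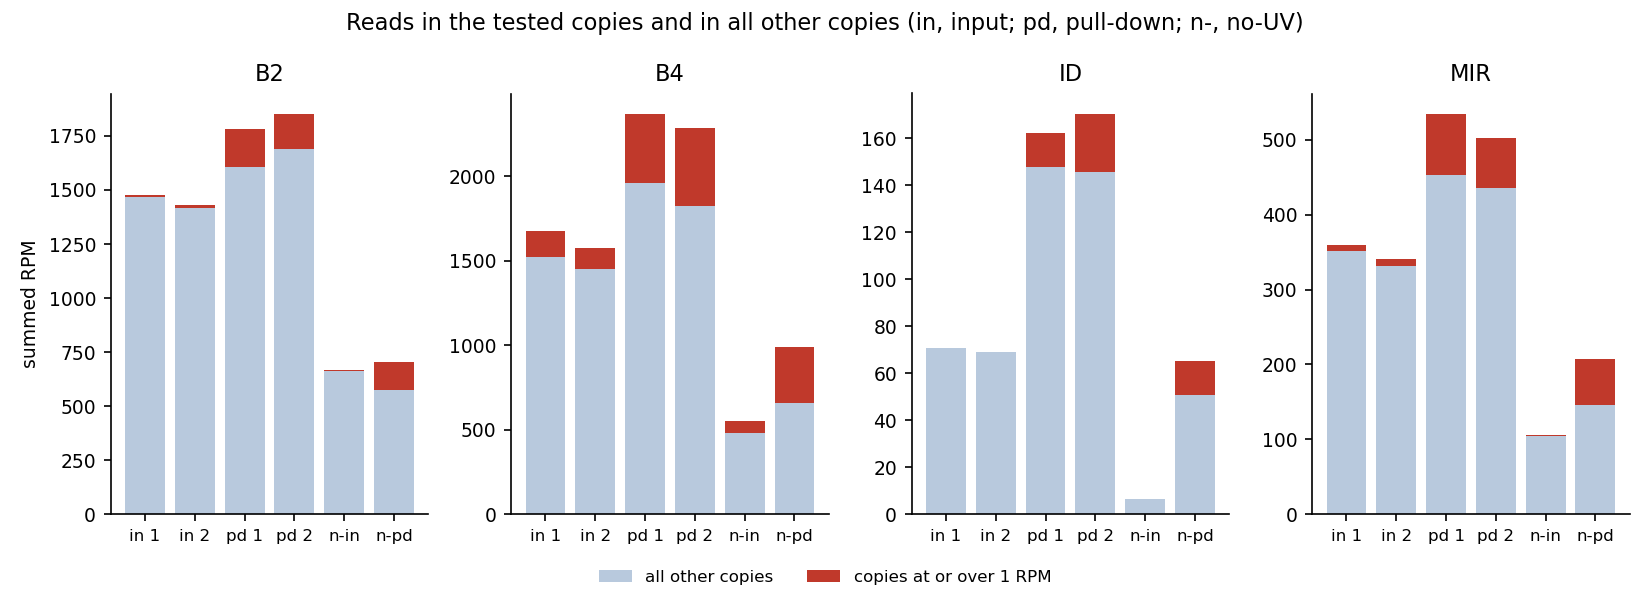
Summed RPM of the tested copies (mean of at least 1 RPM over the UV libraries, upper part of each bar) and of all other copies (lower part) for each family and library, on linear axes from 0. The upper part is larger in the pull-downs by the choice of its copies, of which 112 of 142 reached the minimum through the pull-downs alone. The lower part of ID is at 147.8 and 145.6 RPM in the UV pull-downs and 70.8 and 69.1 RPM in the UV inputs.

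The authors' deposited table, which gives 1 enrichment value per feature by an unstated formula, held 207 copies of the 4 families, 90 of B2, 101 of B4, 1 of ID and 15 of MIR. Their median ratio in the authors' deposited table was 3.23, against 3.14 for its 70 Alu copies, 20.9 for its 322 tRNA features and 1.37 for all of its 216085 features. In the authors' deposited table, 11 of the 70 Alu copies and 148 of the 322 tRNA features stood among the 1000 highest of its 216085 values. So did 27 of the 207 copies of the 4 families in the authors' deposited table. The highest was B2_Mm1t_dup4656, at 981 and rank 7 in the authors' deposited table, although it held only 0.620 and 0.632 RPM in the UV pull-downs and 0.380 RPM in the no-UV pull-down. The one ID copy was ID4__dup18858, at 131 and rank 130 in the authors' deposited table. B4A_dup20565 stood there at 202 and rank 87, and RSINE1_dup31093 at 29.5 and rank 766, so that 3 of the 10 copies above were listed by the authors.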

How the data were processed

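The authors deposited, for each library, an expected count per annotated feature, in which reads that fit several features of a class were split, and the RPM of each feature. The RPM was found to equal the count over all reads of the library, unannotated reads included. The authors also deposited an enrichment ratio per feature, whose formula is not given in the sources used here. The submitters' processing notes name bcl2fastq 2.19, STAR 2.5.2b, bedtools 2.29.0 and mm10, without role or order. The annotation, the treatment of PCR duplicates and the use of strand are not given in the sources used here, so sense and antisense SINE reads cannot be told apart.

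Copies were summed by subfamily and by family, tRNA genes by anticodon and as 1 feature. Counts were rounded and tested with edgeR 4.0.16 (quasi-likelihood, library size of annotated reads, no scaling factors) over all features that averaged 1 RPM or more across the 4 crosslinked libraries, with Benjamini-Hochberg adjustment over all of them and a threshold of 0.05. Unannotated reads stayed out of library sizes and tests. The fit of the crosslinking difference used all 6 libraries. DESeq2 1.42.0, limma 3.58.1 (on log2(RPM + 1)), TMM factors, other filters, other library sizes, a replicate block and leaving out each library were alternatives. The fits were tested on simulated counts.

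Named copies were up to 5 higher and 5 lower calls with the largest log2 ratio and no overlap, and the 5 copies of each family with the highest mean. Other copies were named after their values were seen. The members and lists were chosen with earlier results of these data known. Same-numbered crosslinked samples had a correlation of deviations of 0.111 over 39872 features. With 2 pairs and no shared origin in the labels, they were taken to share a number only.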

Additional observations from a re-analysis of the deposited data

Results flagged for a closer look

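B2_Mm1t, B2_Mm2 and B3, all of the B2 family, had a ratio of pull-down over input above 1 in both UV pairs and below 1 in the no-UV pair. The log2 ratio of the no-UV pair was -0.175 for B2_Mm1t, where the UV pairs had 0.11 and 0.35. It was -0.246 for B2_Mm2, where the UV pairs had 0.0021 and 0.26, so that the first was near 0. It was -0.0623 for B3, where the UV pairs had 0.21 and 0.31. The test of the difference with edgeR over all 6 libraries passed for none of the 3 (adjusted p 0.567, 0.568 and 0.581), and the difference was negative for all 3 with TMM factors.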

How the results depend on the processing

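The number of subfamilies called higher was 6, and was 10 with a minimum of 5 RPM, 12 with TMM factors and 0 without a filter, where 598266 features were tested (14 of the 17 had an unadjusted p under 0.05). Leaving out 1 UV library gave 5 each time. The number of copies called higher was 119, with 226 of 314 at a minimum of 0.5 RPM and 12 of 17 at 5 RPM. Of all features, 4184 of 77398 and 551 of 5928 were called higher at these minima. Without a filter, 0 copies were called. There, 2934 of 96259 copies were higher and 957 lower at an unadjusted edgeR p under 0.05. In either direction, 41845 of 942601 features had such a p. The number of copies called lower was 4, with 0 at 5 RPM and without a filter. It was 11 with unannotated reads in the library sizes and 10 with limma. There, 2213 and 2318 of all 39872 features were called lower, against 1384 in the main fit. The number of subfamilies whose UV and no-UV ratios differed was 0, with 3 in DESeq2 and 0 to 2 with 1 library left out. The family log2 ratio with TMM factors was 0.82 for B4 and 0.87 for MIR, now past the threshold. With the replicate number as a replicate block, 5 subfamilies and 117 copies were called higher and 4 copies lower, and ID_B1 (adjusted p 0.0522) and the lower copy B4A_dup103427 (0.0828) lost their calls.

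The RPM ratios of the families moved with the total and with the copies counted. With annotated reads as the total they were 1.33 for B2, 1.52 for B4, 2.54 for ID and 1.58 for MIR, and with all reads other than rRNA as the total, unannotated reads included, 1.21 for B2, 1.38 for B4 and 2.30 for ID. With rRNA and unannotated reads both left out, the edgeR log2 ratio of ID was 1.45, and 1.34 with annotated reads. Without the 10 copies with the highest mean they were 1.17 for B2, 1.98 for ID and 1.33 for MIR. Over copies with whole-number counts they were 1.08, 1.17, 1.97 and 1.23, and without the copies at or over the minimum, an alternative chosen after seeing the data, 1.14, 1.27, 2.10 and 1.30 for B2, B4, ID and MIR. With 1 library left out, the B4 ratio ran from 1.39 to 1.48. The cause was not tested for any of these shifts. No value that passed a test changed sign, and 130 of the 166 values of main results kept their side of the threshold or stayed within the limits set for them. Few reads limit single copies, as 91 of the 142 tested had at most 3 reads in each UV input.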
